A study of Mus musculus with 7 samples.

Results

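Phf21b, a PHD-finger protein, and 8 genes of the CoREST-LSD1 complex were followed in 7 RNA-seq libraries of the VMHvl, the ventrolateral division of the ventromedial nucleus in the mouse hypothalamus, where many neurons make estrogen receptor alpha. The 9 genes (Phf21b, Phf21a, Kdm1a, Rcor1, Rcor2, Rcor3, Hdac1, Hdac2 and Hmg20b) were taken by symbol from the 48321 rows of the count tables. All 9 passed the filter on low counts. Phf21b was chosen because it was already known to be much higher in the estrogen-treated libraries, so its own difference is described here without a test. The other genes were added for their place in the complex. The mice were ovariectomized females of mixed background with 129/Sv ancestry, from a colony that goes back to a floxed Esr1 line. The sources used here do not give the Esr1 genotype of these animals or their ages. Tissue was dissected by hand from 3 mice given vehicle and from 4 given 1 µg of estradiol benzoate (EB, an ester of estradiol) under the skin, 4 hours after dosing, and each library is 1 mouse. The comparison asks which VMHvl transcripts differ shortly after estrogen replacement.

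LSD1, the product of Kdm1a, removes methyl groups from lysine 4 of histone H3, a mark of active promoters and enhancers. CoREST proteins, the products of the Rcor genes, hold LSD1 together with the histone deacetylases HDAC1 and HDAC2 and bring them to nucleosomes. The PHD finger of Phf21a, also called BHC80, binds the histone H3 tail when lysine 4 carries no methyl group, and Hmg20b, also called BRAF35, is a DNA-binding HMG-box subunit. The complex is best known as a corepressor of REST, which binds RE1 elements in neuronal genes. Phf21b is the closest relative of Phf21a.

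Library totals ran from 21037303 to 33302293 counts. Summed levels of 10 VMH and VMHvl marker genes, none at 0, were 1099 to 1420 CPM with vehicle and 1334 to 1535 CPM with EB (CPM, the TMM-normalised count scaled to library size, as throughout). Of the 10, edgeR called 2 higher with EB: Pgr, at 82.2 and 207.5 CPM on average (adjusted p = 2.26e-06), and Cckar, at 6.52 and 17.4 CPM (adjusted p = 0.0207). Of 7 tested arcuate markers 1, Isl1, was called lower, at 67.3 and 29.7 CPM (adjusted p = 0.00249, edgeR), where 0.207% of tested genes were. The arcuate list as a whole did not go that way: 5 changes were positive and 2 negative, with a median log2 difference of 0.36. Esr1 averaged 223 and 192 CPM, and Nr5a1, a defining gene of the VMH, only 2.03 and 2.52 CPM. Mitochondrial ribosomal RNA took 7.88% to 26.1% of counts with vehicle and 7.27% to 19.8% with EB. The marker list of mural cells and fibroblasts was highest in vehicle 1 (190.7 CPM, against 36.9 to 127 in the other libraries) and that of the pituitary in EB 4 (29.4 CPM, against 2.84 to 14.6). The 5 microglial markers, 2 with positive and 3 with negative changes and none at 0, summed to 101.9 to 104.8 CPM with vehicle and 85.2 to 99.6 CPM with EB, without overlap. Most of that difference lay in P2ry12, at 41.3 and 30.9 CPM on average. Cx3cr1 (17.6 and 15.5) and Aif1 (6.02 and 4.93) were also lower, and Csf1r (32.1 and 34.5) and Tmem119 (6.64 and 7.14) higher. The 5 endothelial markers, 4 of them with negative changes and none at 0, summed to 66.1 to 88.7 and 52.2 to 67.3 CPM. Most of the endothelial difference lay in Flt1, at 47.9 and 34.4 CPM on average. The part of these differences in the results below was not tested. In such bulk tissue, fewer cells of a type and less RNA per cell cannot be told apart.

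Phf21b was scarce after vehicle and abundant after EB. The vehicle libraries held 59, 65 and 31 counts of Phf21b and the EB libraries 1136, 760, 592 and 840. Scaled to library size, these were 2.29, 2.06 and 1.37 CPM in vehicle 1 to 3 and 37.1, 23.4, 24.9 and 34.6 CPM in EB 1 to 4. The groups lay far apart: the lowest EB library stood above the highest vehicle library, and the EB mice formed a higher pair (EB 1 and EB 4) and a lower pair. Means were 1.91 ± 0.483 CPM (SD, n = 3) and 30.0 ± 6.84 CPM (SD, n = 4), a fitted 15.5-fold difference (log2 3.96 ± 0.23, SE). With any 1 library left out, this log2 difference lay between 3.79 and 4.08. None of the 3590 windows of 50 bases in the longest annotated Phf21b transcript occurs in a transcript of another gene.

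The promoter windows of Phf21b and Rcor2 are shown because these were the 2 members whose EB libraries all lay above the vehicle libraries. Both are given 5′ to 3′ on the gene's strand from RefSeq on GRCm38.p6, the assembly also named mm10, with CpG dinucleotides in capitals. The Phf21b gene lies on the minus strand at chr15:84785381-84856049, with 6 annotated transcripts. Its window covers the 250 bases before the RefSeq start, at chr15:84855100-84855349. This window lies inside the annotated gene, whose 5′ end is farther upstream, and 11 of its bases fall in annotated exons. Bases upstream of the window, including those before that 5′ end, were not searched. Rcor2 lies on the plus strand at chr19:7267325-7275225, and its stretch at chr19:7267144-7267324 ends before the first annotated exon.
Phf21b: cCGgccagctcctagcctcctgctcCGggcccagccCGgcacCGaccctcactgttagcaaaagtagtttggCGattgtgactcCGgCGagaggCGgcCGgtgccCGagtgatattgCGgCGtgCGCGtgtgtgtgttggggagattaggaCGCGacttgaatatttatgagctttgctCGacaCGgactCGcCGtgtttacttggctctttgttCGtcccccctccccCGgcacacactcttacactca
Rcor2: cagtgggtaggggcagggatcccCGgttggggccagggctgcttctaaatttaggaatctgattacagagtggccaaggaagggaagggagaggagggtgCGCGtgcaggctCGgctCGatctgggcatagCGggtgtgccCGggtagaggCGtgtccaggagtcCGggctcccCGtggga
The Phf21b window holds 22 CpG dinucleotides, against a median of 6 over 32851 windows of the same length, and 14.8% of those windows hold as many. The whole 250-base Rcor2 window holds 17. Neither window contains, on either strand, the estrogen response element (GGTCA and TGACC, 3 bases apart; found in 0.0639% of all windows), its half-site AGGTCA (14.0%, which can overlap the full element), the AP-1 motif TGANTCA (6.75%), the CRE TGACGTCA (1.55%) or TATAAA (12.4%). GGGCGG, the GC box, is absent from the Phf21b window and occurs once in that of Rcor2, 61 bases before the RefSeq start, and in 32.7% of all windows. That match lies past the printed stretch, among the last 69 bases of the Rcor2 window, which fall in annotated exons. Of the other members with a RefSeq window (8 of 9 matched), Kdm1a has 1 half-site 115 bases before its start, a window of Phf21a holds TATAAA, and the GC box occurs in a window of Phf21a, Rcor1, Rcor3, Hdac2 and Hmg20b. A match is only a run of letters, and its absence concerns this window alone.

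Phf21a, the closest relative of Phf21b, stood lower after EB in every library. It was at 60.8, 60.5 and 59.8 CPM in vehicle 1 to 3 and at 52.2, 49.7, 48.3 and 46.4 CPM in EB 1 to 4. The 3 vehicle values lay within 1 CPM of their mean, and no EB library reached them. The log2 difference of −0.30 ± 0.08 (SE; 95% interval −0.47 to −0.12) did not pass edgeR's quasi-likelihood test after adjustment over all genes (adjusted p = 0.156). DESeq2 gave an adjusted p of 0.0398, and without any 1 library edgeR gave 0.252 to 0.313.

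**Figure D1:**
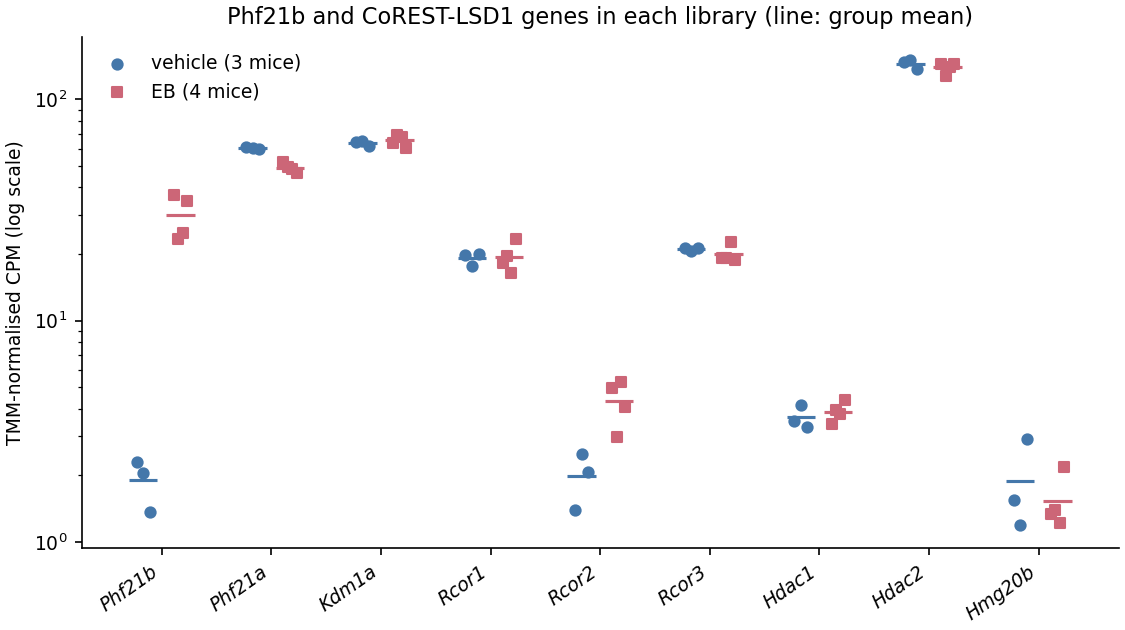
TMM-normalised CPM of the 9 genes in each library, on a log axis, with circles for the 3 vehicle mice, squares for the 4 EB mice and a line at each group mean. Phf21b moved from 1.37 to 2.29 CPM with vehicle to 23.4 to 37.1 CPM with EB, Rcor2 and Phf21a separated by group at much smaller differences, and the other 6 genes overlapped.

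Compared per length, Phf21b was among the lowest of the 9 genes after vehicle and had the third highest mean after EB. Levels between genes are given in TPM, counts per kilobase of annotated exon scaled to the same total in each library. Phf21b was at 1.30, 1.86 and 1.34 TPM in the vehicle libraries, above 18.2% of tested genes, and at 25.1, 19.0, 22.0 and 34.8 TPM in the EB libraries, above 71.8%. Phf21a averaged 24.5 ± 6.46 TPM with vehicle and 20.5 ± 2.38 TPM with EB. Of the summed TPM of this gene pair, Phf21b made up 7.04%, 6.40% and 4.38% in vehicle 1 to 3 and 58.8%, 48.6%, 50.9% and 59.9% in EB 1 to 4. After vehicle nearly all PHF21-type transcript was Phf21a, and after EB the pair was near parity. The sum of both went from 26.0 ± 6.59 TPM (SD, n = 3; range 18.4 to 30.5) to 45.8 ± 8.45 TPM (SD, n = 4; range 39.1 to 58.1), given as a description because it contains the Phf21b difference.

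The order of the 9 genes after vehicle was Hdac2 (113 ± 28.7 TPM), Kdm1a (42.6 ± 11.0), Phf21a, Rcor1 (11.7 ± 3.17), Rcor3 (5.39 ± 1.43), Hdac1 (3.70 ± 1.11), Rcor2 (2.29 ± 1.07), Hmg20b (2.17 ± 1.46) and Phf21b (1.30 to 1.86). From Hdac2 to Rcor3 each gene's lowest vehicle library exceeded the highest of the next. Rcor3 and Hdac1, Hdac1 and Rcor2, Rcor2 and Hmg20b, and Hmg20b and Phf21b overlapped in range. Within each vehicle library, Rcor3 still stood above Hdac1 and Hdac1 above Rcor2. Rcor2 was below Hmg20b in vehicle 1 and vehicle 3 and above it in vehicle 2. The last place is not settled: Hmg20b was below Phf21b in vehicle 1 (1.19 against 1.30 TPM) and vehicle 2 (1.47 against 1.86) and above it in vehicle 3 (3.85 against 1.34). Without vehicle 3 the means were 1.33 TPM for Hmg20b and 1.58 for Phf21b. After EB, Phf21b stood between Kdm1a and Phf21a, and its 4 values overlapped those of Phf21a. Much of the spread in TPM lies in the scaling: mitochondrial ribosomal RNA made up 20.9% to 53.4% of the TPM total of a library. With mitochondrially encoded genes left out of the total, an alternative chosen after seeing the data, the order of the means was the same in each group and Hdac2 was at 196.0 ± 5.28 TPM with vehicle. By the length of the longest transcript the order changed: Rcor3 stood above Rcor1 (16.3 against 9.87 TPM with vehicle and 16.1 against 10.4 with EB), Hmg20b above Rcor2 with vehicle (2.30 against 2.14) and Hdac1 above Rcor2 with EB (5.85 against 4.64).

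**Figure D2:**
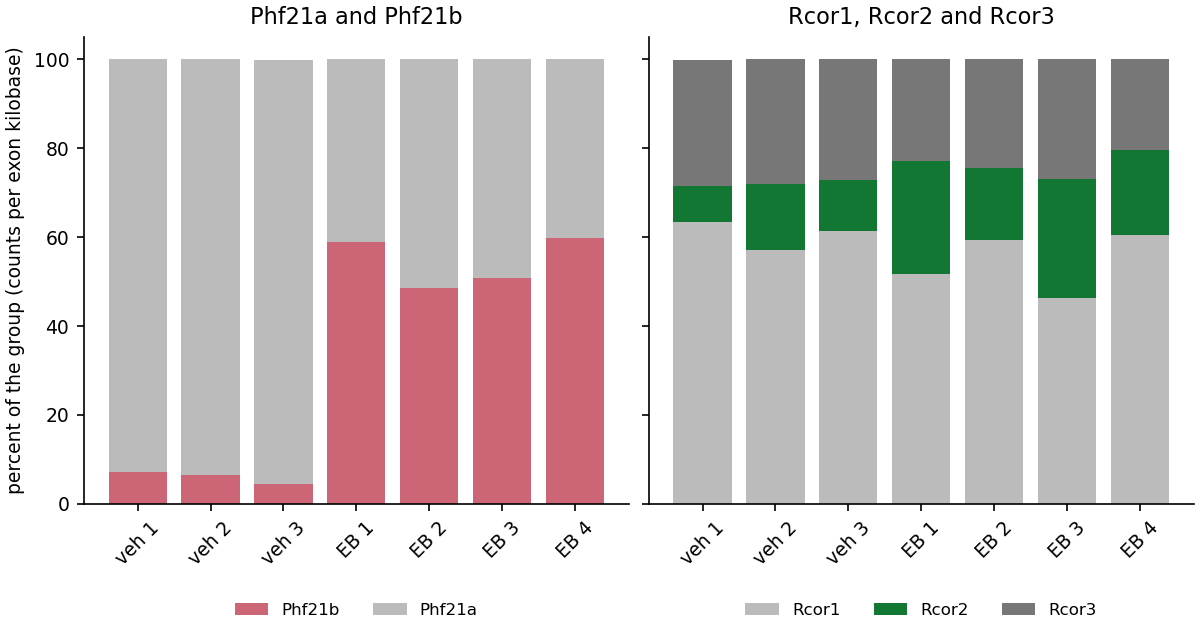
Share of each gene in the per-kilobase counts of its paralog group in each library, as stacked bars that sum to 100%; the left panel shows Phf21a and Phf21b and the right panel the 3 Rcor genes. Phf21b made up 4.38% to 7.04% of its pair in the vehicle mice and 48.6% to 59.9% in the EB mice, and Rcor2 made up 8.04% to 14.7% and 16.3% to 26.9% of its group.

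Kdm1a, the catalytic subunit, differed little. Its level was 64.1, 65.1 and 61.3 CPM in vehicle 1 to 3 and 63.8, 69.3, 67.5 and 60.5 CPM in EB 1 to 4. The groups overlapped, and the log2 difference was 0.04 ± 0.08 (SE; adjusted p = 0.941 by edgeR's quasi-likelihood test). Its 95% interval runs from −8.91% to 15.9%. Kdm1b, the related demethylase LSD2, was at 9.63 and 7.86 CPM on average, a log2 difference of −0.29 ± 0.20 (SE).

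Among the CoREST scaffold genes, Rcor2, known from embryonic stem cells and neural progenitors, was higher in every EB library, whereas Rcor1 and Rcor3 overlapped between groups. Rcor2 had 36, 79 and 47 counts in vehicle 1 to 3 and 152, 97, 126 and 99 counts in EB 1 to 4. That is 1.40, 2.50 and 2.07 CPM against 4.97, 2.99, 5.31 and 4.07 CPM. The groups did not overlap, but EB 2 came within 0.5 CPM of vehicle 2. The difference was 2.13-fold (log2 1.09 ± 0.30, SE; 95% interval 0.45 to 1.74) and did not pass over all genes by edgeR's quasi-likelihood test (adjusted p = 0.156) or without any 1 library (0.106 to 0.399). It passed by DESeq2 (adjusted p = 0.0340) and by edgeR with no filter on low counts (adjusted p = 0.0238).

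Rcor1, the founding CoREST gene, was at 19.9, 17.6 and 20.1 CPM with vehicle and 18.3, 19.6, 16.5 and 23.3 CPM with EB. Its log2 difference of 0.02 ± 0.14 (SE; adjusted p = 0.985, edgeR) turned to −0.08 without EB 4 and to −0.04 without vehicle 2. Rcor3 was at 21.4, 20.7 and 21.3 CPM with vehicle and 19.3, 19.3, 22.8 and 18.8 CPM with EB, a log2 difference of −0.08 ± 0.12 (SE; adjusted p = 0.922, edgeR). EB 3 alone stood above the vehicle libraries in Rcor3. Of the 3742 windows of 50 bases in its longest transcript, 16.8% also occur in another annotated gene, nearly all of them in Gm26879, so part of its reads may be assigned elsewhere. Of the summed TPM of the 3 scaffold genes, Rcor2 made up 11.4% ± 3.31 (SD, n = 3) with vehicle and 21.9% ± 5.03 (SD, n = 4) with EB. Rcor1 made up 60.7% ± 3.17 and 54.5% ± 6.65, so it remained the largest share with these exon lengths. By the longest annotated transcript Rcor3 was the largest, at 57.8% ± 0.878 and 51.7% ± 3.62, where that transcript covers 3791 of its 13622 annotated exon bases.

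Transcripts for the deacetylase subunits did not differ beyond the spread between mice. Hdac2 was at 147, 151 and 138 CPM in vehicle 1 to 3 and at 145, 127, 141 and 145 CPM in EB 1 to 4 (log2 −0.06 ± 0.07, SE; adjusted p = 0.889, edgeR). Its 95% interval runs from −13.8% to 6.83%. Hdac1 was far lower, at 3.30 to 4.15 CPM with vehicle and 3.40 to 4.40 CPM with EB (log2 0.07 ± 0.22, SE; adjusted p = 0.965, edgeR). Its level is uncertain: 58.7% of the 1989 windows of 50 bases in its longest transcript also occur in other genes, mostly in Gm10093, which itself had 30 to 70 counts per library, and the handling of reads with several matches is not given in the sources used here. Hmg20b, the HMG-box subunit, had 29 to 66 counts per library, 1.20 to 2.91 CPM with vehicle and 1.22 to 2.18 CPM with EB. At this depth its interval runs from −53.4% to 48.2%, and the sign of its estimate (log2 −0.27) turned to 0.15 without vehicle 3.

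**Figure D3:**
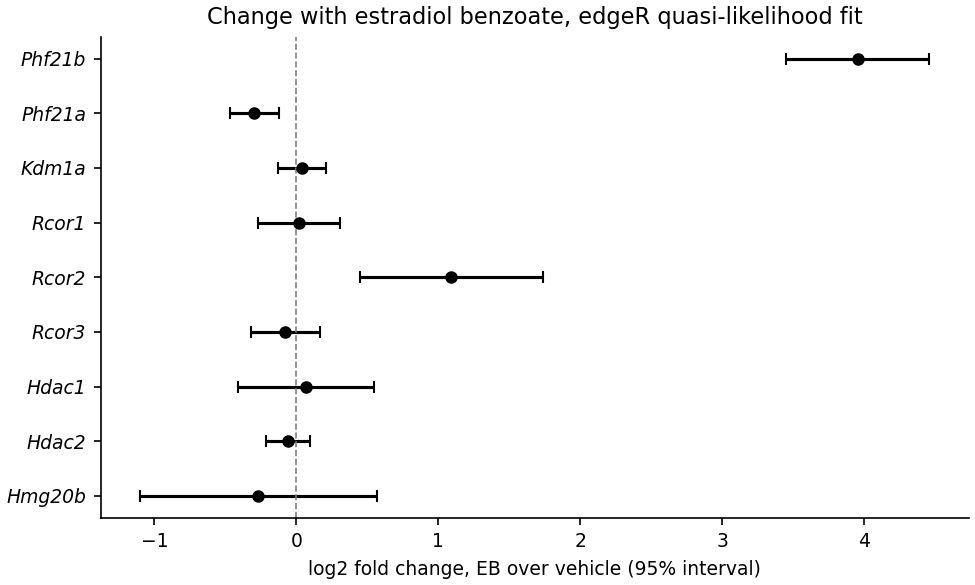
Fitted log2 fold change of each of the 9 genes, EB over vehicle, with 95% intervals from edgeR's quasi-likelihood fit over 3 and 4 libraries. Phf21b stands at 3.96 and Rcor2 at 1.09, the interval of Phf21a lies below 0, and those of the other 6 genes include 0.

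Of the 9 members, 1 (Phf21b) was called by edgeR at an adjusted p below 0.05, against 0.952% of the 18387 tested genes (0.745% higher with EB and 0.207% lower), and since that gene was picked on this contrast nothing is read from the count. Among the 8 others edgeR called 0, 2 had an unadjusted p under 0.05 (Phf21a and Rcor2), DESeq2 called those 2 and limma-voom called 0. Over all tested genes 9.04% had such an unadjusted p. DESeq2 called 1.96% (1.30% higher and 0.665% lower) and limma-voom 0.848% (0.647% higher and 0.201% lower). Phf21b, picked on this contrast, did not overlap between groups. Of the 8 others 2 did not overlap (Rcor2 higher, Phf21a lower), against 9.10% of tested genes (5.11% higher and 3.99% lower). The 8 others had a median log2 difference of −0.02, beside −0.01 over all tested genes, and summed to 309 to 323 CPM with vehicle and 293 to 308 CPM with EB.

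The genes around Phf21b on chromosome 15 were read from the same fit. No annotated gene overlaps it. On the side of its start, the nearest tested genes were Gm29666 (a predicted gene 54.4 kb away), Nup50 (67.4 kb) and 5031439G07Rik (87.9 kb). Nup50, which encodes a protein of the nuclear pore basket, was at 39.0, 45.8 and 48.8 CPM in vehicle 1 to 3 and at 75.7, 60.0, 64.6 and 77.5 CPM in EB 1 to 4. It rose 1.56-fold without overlap between groups (log2 0.64 ± 0.11, SE; adjusted p = 0.0113, edgeR), where 0.745% of tested genes were called higher. That call ended without vehicle 1 (adjusted p = 0.0522) or EB 1 (0.0527). Gm29666 was at 3.36 ± 0.059 and 4.69 ± 1.19 CPM (log2 0.49 ± 0.25, SE, and 0.31 without EB 1) and 5031439G07Rik at 58.0 ± 7.51 and 71.6 ± 7.81 CPM (log2 0.31 ± 0.11, SE), and neither passed (adjusted p = 0.596 and 0.332, edgeR). On the other side, Prr5, a subunit of the mTORC2 kinase complex, lay 81.7 kb away and the parvin genes Parvg and Parvb 442 and 470 kb away. Their log2 differences were −0.30, 0.36 and −0.21, and none of the 3 passed (adjusted p = 0.668 to 0.912, edgeR). All 3 genes on the side of the start had positive estimates, at most 0.64 against 3.96 for Phf21b.

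**Figure D4:**
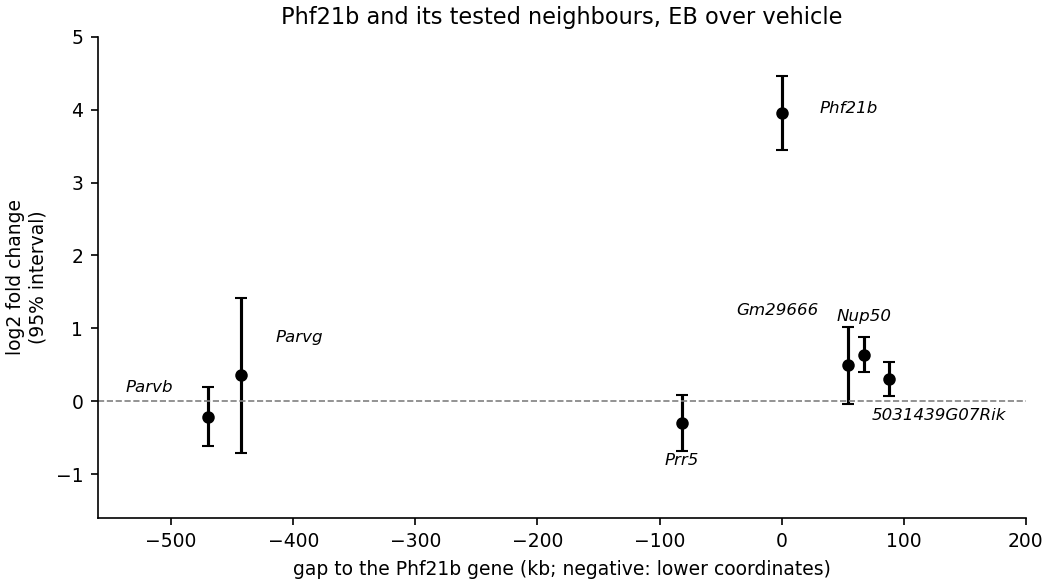
Log2 fold change of Phf21b and of the 3 nearest tested genes on each side, EB over vehicle, against the gap to the Phf21b gene in kilobases, with 95% intervals. Phf21b stands at 3.96, Nup50 at 0.64 is the 1 neighbour that passed the test, and the other 5 lie between −0.30 and 0.49.

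Other subunits and partners of the complex gave no calls. Over all tested genes edgeR called only 0.952%, so 0 in a list of this size is near that share and nothing is read from it. Of 20 listed genes 16 were tested, and edgeR called 0 (2 with p under 0.05 before adjustment, and DESeq2 and limma-voom 0 each), with a median log2 difference of −0.14 and 13 of 16 below 0. Rest itself, the factor that recruits CoREST to RE1 elements, averaged 18.3 and 18.1 CPM (log2 −0.01 ± 0.19, SE). Nr2e1, the orphan receptor TLX of neural stem cells, was at 8.94, 11.4 and 9.56 CPM with vehicle and 6.63, 7.61, 7.41 and 7.65 CPM with EB (log2 −0.45 ± 0.16, SE; adjusted p = 0.347, edgeR). The zinc-finger subunit Zmym2 was at 265 ± 1.45 and 235 ± 16.7 CPM (log2 −0.17 ± 0.07, SE; adjusted p = 0.409, edgeR). In both genes every EB library lay below every vehicle library, where 3.99% of tested genes did so. The recruiting factors Gfi1, Gfi1b and Snai3 were at 0 in all libraries.

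Complexes that share the deacetylases, and enzymes that write or erase the same histone mark, also held no called gene by edgeR. With 0.952% of all tested genes called, 0 is near that share for these lists too and is not read as a result. For the NuRD, Sin3, NCoR, MIER and MiDAC genes this was 0 of 40 (4 with p under 0.05 before adjustment, 1 by DESeq2 and 0 by limma-voom), with a median log2 difference of 0.05. The 2 with the smallest p both belong to the NCoR complex: Tbl1xr1 was at 149.6 ± 14.3 and 119 ± 10.6 CPM (log2 −0.33 ± 0.09, SE; adjusted p = 0.135, edgeR) and Gps2 at 6.44 ± 0.465 and 9.06 ± 1.13 CPM (log2 0.50 ± 0.17, SE; adjusted p = 0.316, edgeR). Tbl1xr1 was the gene DESeq2 called (adjusted p = 0.0281). For 27 genes of lysine 4 methylation it was 0 as well (1 with p under 0.05 before adjustment, and DESeq2 and limma-voom 0 each), with a median of 0.04. Ash2l, a core subunit of the methyltransferase complexes, was at 48.1 ± 2.26 and 54.4 ± 0.707 CPM, and Hcfc1, a host cell factor found in the same complexes, at 165 ± 6.40 and 179.7 ± 8.29 CPM, with adjusted p of 0.548 and 0.642 (edgeR).

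Among other PHD-finger genes and neuronal REST targets edgeR made no call, again near the share of 0.952% over all tested genes, so nothing is read from these counts. Of 25 genes of the Phf and Jade series 21 were tested and 0 called (2 with p under 0.05 before adjustment, 1 by DESeq2 and 0 by limma-voom), with a median log2 difference of −0.05. Jade2 and Jade1, scaffolds of a histone acetyltransferase complex, had the smallest p. Jade2 was at 25.4, 26.9 and 23.4 CPM with vehicle and 19.7, 15.3, 18.5 and 16.4 CPM with EB, without overlap (log2 −0.53 ± 0.12, SE; adjusted p = 0.0727, edgeR). It passed by DESeq2 (adjusted p = 0.00704) and by edgeR with a minimum count of 50 (0.0498) or no filter (0.0203). Jade1 was at 69.8 ± 6.19 and 56.1 ± 5.83 CPM (log2 −0.31 ± 0.10, SE; adjusted p = 0.236, edgeR). Of 39 neuronal genes with RE1 sites edgeR called 0 (4 with p under 0.05 before adjustment, and DESeq2 and limma-voom 0 each). Their median log2 difference was −0.01, the same as over all genes, with 19 of them with positive and 20 with negative estimates. Scg2, which encodes secretogranin II, was at 914 ± 14.4 and 1022 ± 98.1 CPM (log2 0.16 ± 0.07, SE; adjusted p = 0.480, edgeR). Cdk5r2, an activator of the kinase Cdk5, was at 44.2 ± 13.2 and 32.9 ± 2.51 CPM (log2 −0.43 ± 0.16, SE; adjusted p = 0.390, edgeR), and passed without vehicle 1 (adjusted p = 0.0418). Vehicle 2 was its highest library, at 58.2 CPM, and without it the log2 difference was −0.18 (adjusted p = 0.780, edgeR). Gad2, chosen after its values were seen, was called without vehicle 3.

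**Figure D5:**
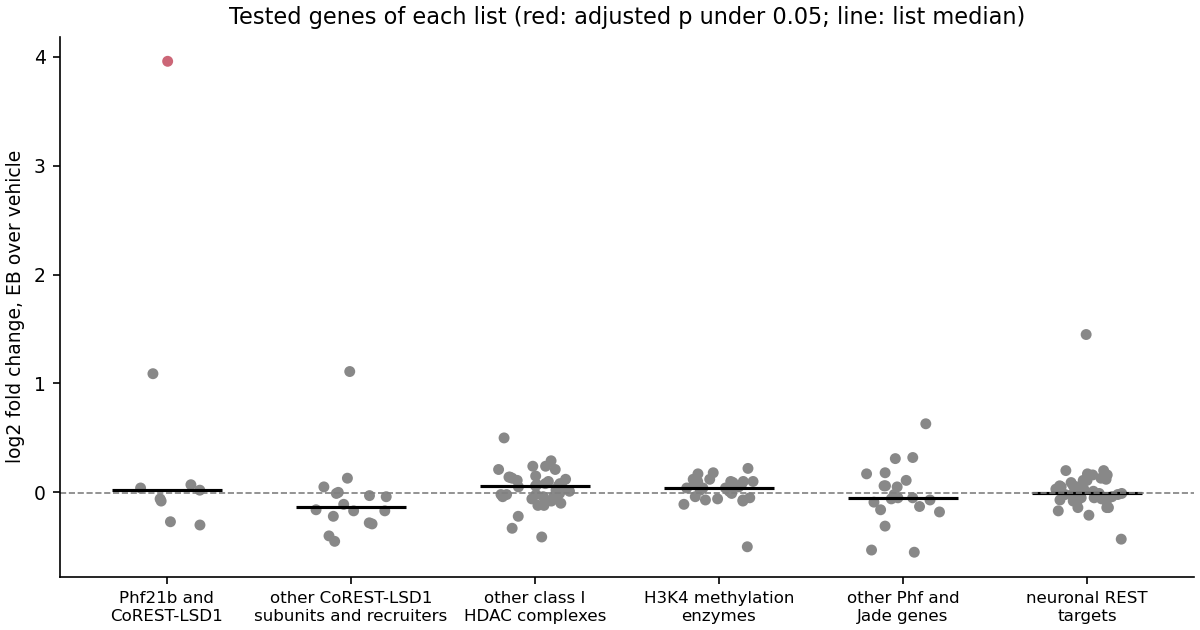
Log2 fold change, EB over vehicle, of each tested gene in the 6 lists, with a line at each list's median, a dashed line at the median of all tested genes (−0.01) and red for genes with an adjusted p under 0.05 by edgeR. Phf21b is the 1 red point, and the list medians lie between −0.14 and 0.05.

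The genes whose levels followed Phf21b most closely over the 7 libraries were Mad2l1 (Pearson r = 0.998 of log2 CPM), Rnf19a (0.996), Nab2 (0.992), Zbtb42 (0.992) and Gadd45a (0.992), out of 13028 genes ranked. The value is a description: it mostly reflects the difference between the groups that all these genes share, and 72 genes had r above 0.95. Mad2l1, a spindle checkpoint gene, was at 6.39 to 11.4 CPM in the vehicle libraries and at 83.9, 55.1, 64.2 and 81.7 CPM in EB 1 to 4. Its order over the 7 mice was that of Phf21b, with EB 1 and EB 4 high, EB 2 and EB 3 lower and vehicle 3 lowest. Rnf19a, a ubiquitin ligase, was at 40.0 ± 4.05 and 95.9 ± 9.83 CPM, and Nab2, a corepressor of EGR transcription factors, at 13.5 ± 1.34 and 33.7 ± 4.70 CPM. Zbtb42 also had its highest values in EB 4 and EB 1, at 21.4 and 17.6 CPM. Among the members, r with Phf21b was 0.852 for Rcor2 and −0.932 for Phf21a, and between −0.468 and 0.320 for the other 6.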

How the data were processed

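The authors deposited raw counts per gene, whole numbers for 48321 symbols in each of 7 libraries (3 vehicle, 4 EB). Per the submitters' processing notes HISAT2, HTSeq, DESeq2 and the build mm10 were used; versions, annotation, strand and the handling of multiply mapped reads: not given in the sources used here. Libraries came from 15 ng of RNA, per the labels' protocols. Replicates of a group differed by more than sampling noise (chi-square per degree of freedom 17.0 to 166.1), and replicate numbers only name the mice.

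Genes were filtered with filterByExpr (minimum count 10; 18387 of 31222 symbols with a count), normalised with TMM factors, and the groups compared in edgeR 4.0.16 (glmQLFit, robust, legacy = FALSE) in R 4.3.3, with Benjamini-Hochberg adjustment over all tested genes. SE is the absolute log2 change over the square root of F, and 95% intervals use its t quantile. Alternatives used DESeq2 1.42.0, limma-voom (limma 3.58.1), other scalings and filters, and libraries left out. Positions and exon lengths are from GENCODE M21 (GRCm38; 96.5% of tested symbols matched). In 3 simulations of EB against vehicle with known changes (17661 genes tested on average), edgeR recovered 30.7% of genes changed 1.5-fold, 61.3% changed 2-fold and 92.7% changed 16-fold, with 8.2% false calls. False calls in the same simulations were 17.8% for DESeq2 and 6% for limma-voom. These rates cannot rank the tools, because the counts were drawn from edgeR's own dispersion estimates and DESeq2 was run on 18387 genes. A gene passed by DESeq2 but not by the main edgeR fit is treated as uncertain.

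The members and the 5 further lists were chosen with earlier results of these data known. Named genes were the 9 members, up to 4 called genes of each list or else the 2 with the smallest p, 3 tested neighbours on each side, and the 5 genes most like Phf21b of mean CPM at least 1. Predicted models were left out of the last group.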

Additional observations from a re-analysis of the deposited data

Results flagged for a closer look

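The Rcor3 level in EB 3, 22.8 CPM, stood apart from the other 3 EB libraries, and the Gadd45a level in EB 2, 15.6 CPM, stood below the others. In both, the gap to the nearest library exceeded Dixon's 95% critical value for 4 samples, at 0.866 and 0.836 of the range. The EB libraries of 30 named genes were examined in this way, and chance alone marks about 1 in 20 groups.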

How the results depend on the processing

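No paired analysis was possible because each mouse has its own number in the labels, and replicates 1 to 4 are names given in accession order, which pair no samples. Depth limits Hmg20b most, which was not tested at a minimum count of 50, and Hdac1 is limited by reads shared with a near-identical copy. The number of genes called higher (137) and lower (38) was 232 and 119 by DESeq2 and 240 and 135 with no filter on low counts; with 1 library left out it ran from 78 (without vehicle 3) to 122 and from 20 (without EB 1) to 45, with 87 higher without EB 1 and 24 lower without vehicle 3 or EB 2. Members called numbered 3 by DESeq2 and 2 with no filter, and 1 without any 1 library. Called genes of the other deacetylase complexes numbered 1 by DESeq2 and 1 with no filter, and of the Phf and Jade series 1 by DESeq2, 1 with no filter and 1 at a minimum count of 50. Of the REST targets 0 to 1 were called with 1 library left out. Without vehicle 1 and EB 4 together, Rcor1 was at −0.05, Hdac1 at −0.03 and Nup50 at 0.50 (adjusted p = 0.0937), on the log2 scale. With 1 library left out, log2 values ran from −0.08 to 0.09 for Rcor1, from −0.54 to 0.15 for Hmg20b and from −0.10 to 0.67 for Parvg. Of the alternative values for named genes, 459 kept direction and side of the threshold, 9 newly passed, 3 no longer passed and 7 turned sign. Without vehicle 3, vehicle TPM of Hmg20b went from 2.17 to 1.33. By the longest transcript, vehicle TPM was 61.4 for Kdm1a, 16.3 for Rcor3 and 5.28 for Hdac1. Without mitochondrially encoded genes, chosen after seeing the data, it was 2.69 for Phf21b, 42.6 for Phf21a, 74.1 for Kdm1a, 20.4 for Rcor1, 3.80 for Rcor2, 9.38 for Rcor3, 6.41 for Hdac1, 196.0 for Hdac2 and 3.65 for Hmg20b. By Spearman's rho 1 of the 5 genes most like Phf21b was kept, with 11 genes tied at the highest value. For the other shifts the cause was not tested.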
